A study of Mus musculus with 6 samples.

Results

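Long intergenic non-coding RNAs (lincRNAs) are transcripts that code for no known protein and are annotated outside protein-coding genes. The set described here was taken from a table of 28601 genes measured in mouse liver. It holds the genes whose transcript types include lincRNA and not protein-coding, with a mean of at least 1 FPKM (fragments per kilobase of transcript, scaled to library size) over all 6 libraries, leaving out H19 and Meg3. Of 1696 lincRNA genes in the table, 130 reached this level and 128 remained after leaving out those 2. The rule used the mean level over both genotypes, so the levels below are a description.

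The livers came from male mice that carried either the wild-type Prdx1 gene (WT, 3 mice) or a version coding for peroxiredoxin 1 with cysteine 52 changed to serine (PRDX1 Cys52Ser, 3 mice). Peroxiredoxin 1 is an enzyme that removes hydrogen peroxide through reactive cysteines. Both groups received CDAHFD, a choline-deficient, amino-acid-defined, high-fat diet that causes fatty, inflamed and fibrotic liver, from 8 weeks of age and for 8 weeks according to the titles. The treatment field gives 8, 9 and 10 weeks for the WT mice and 11, 12 and 13 weeks for the PRDX1 Cys52Ser mice. If that field were literal, genotype and time on the diet cannot be told apart. There was no group on a normal diet, and the labels name no strain. The comparison asks how lincRNA levels differ between the genotypes on this diet. A p-value below measures the spread between these 3 mice per group.

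Many lincRNAs are known for what lies inside them or for where they stay in the cell. Snhg genes and Gas5 carry small nucleolar RNAs (snoRNAs) in their introns, which guide chemical modification of ribosomal RNA after release, while the spliced host RNA is translated poorly and is often short-lived. MicroRNA host genes carry the hairpins of microRNAs in the same way. Neat1 is the scaffold of paraspeckles, nuclear bodies that hold RNA-binding proteins, and Malat1, its neighbour, is found in nuclear speckles.

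Promoters are shown for Snhg18 and AU020206, which fell in PRDX1 Cys52Ser livers (values below) (RefSeq, build GRCm38.p6, 250 bases before to 50 bases from the start of transcription, written 5′ to 3′ on the gene's strand). Neat1 and Gm29650 also fell. The Snhg18 window (chr15:32244613-32244912, minus strand) has 5 matches to the GC box, GGGCGG or its reverse complement, in capitals, 31 CpG dinucleotides and a GC content of 75.3%. The AU020206 window (chr7:75782071-75782370, minus strand) has 3 matches to the CCAAT box on the opposite strand, in capitals, and 1 GC box that is not marked.
Snhg18: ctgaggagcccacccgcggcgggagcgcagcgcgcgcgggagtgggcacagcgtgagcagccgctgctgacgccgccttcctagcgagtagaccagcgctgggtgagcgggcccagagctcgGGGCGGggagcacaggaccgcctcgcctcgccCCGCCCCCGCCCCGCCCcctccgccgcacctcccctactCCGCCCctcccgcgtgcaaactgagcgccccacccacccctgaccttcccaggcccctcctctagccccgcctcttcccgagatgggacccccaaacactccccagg
AU020206: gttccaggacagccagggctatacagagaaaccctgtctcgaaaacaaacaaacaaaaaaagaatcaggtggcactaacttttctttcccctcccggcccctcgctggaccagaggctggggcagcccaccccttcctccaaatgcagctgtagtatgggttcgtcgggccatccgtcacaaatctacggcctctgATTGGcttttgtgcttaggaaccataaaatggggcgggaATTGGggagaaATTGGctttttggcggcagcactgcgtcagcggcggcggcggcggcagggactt

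The start sites of snoRNA hosts are shown because such genes are known for a run of pyrimidines (C or T) at the start of transcription, the terminal oligopyrimidine tract. Each line gives 35 bases from RefSeq (GRCm38.p6), 10 before the annotated start site and 25 from it, with the longest run of at least 5 pyrimidines that overlaps the first 10 transcribed bases in capitals. The hosts shown are among those with such a run: Snhg1 (chr19:8723477-8723511, plus strand), Snhg8 (chr3:123508312-123508346, minus), Snhg12 (chr4:132308668-132308702, plus), Gas5 (the downstream of 2 annotated starts, chr1:161035156-161035190, plus) and Snhg18 (chr15:32244638-32244672, minus). Snhg15 and the upstream starts of Gas5 and Snhg17, not shown, have no run of at least 5. In Snhg1 the run begins at transcribed base 5.
Snhg1: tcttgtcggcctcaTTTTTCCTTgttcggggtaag
Snhg8: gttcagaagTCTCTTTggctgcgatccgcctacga
Snhg12: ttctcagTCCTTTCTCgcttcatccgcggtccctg
Gas5: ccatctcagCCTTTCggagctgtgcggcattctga
Snhg18: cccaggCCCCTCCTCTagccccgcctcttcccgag

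Promoter windows were found for 75 of the 128 lincRNAs, 10 of them with a snoRNA inside. In the most upstream window of each gene, a run of at least 5 pyrimidines overlapped the first 10 transcribed bases in 7 of 10 snoRNA hosts (70.0%), in 33.8% of the 65 other lincRNAs and in 28.1% of all genes with a window. A GC box was present in 8 of the 10 hosts (80.0%), in 21.5% of the other lincRNAs and in 35.9% of all genes. The hosts held a median of 27 CpG dinucleotides per window, against 6 in the other lincRNAs and 7 in all genes. These shares describe the letters of the windows and were not tested. For all 75 together, the shares with each motif on either strand were close to those of all genes for the GC box (29.3% against 35.9%), the CCAAT box (37.3% against 38.0%), the E-box CACGTG (6.67% against 7.24%) and the AP-1 site TGACTCA (5.33% against 5.17%). The NRF2 core TGACNNNGC, which also takes an AP-1 site followed by GC, was in 12% against 12.4%, and the TATA box TATAAA in 20% against 14.2%. The cAMP response element TGACGTCA was in 4 of 75 windows (5.33% against 1.85%), and the HNF4A site CAAAGTCCA in 0 of 75 (0.474% of all genes).

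The 128 genes spread over a wide range of levels, most of them low. Between 1 and 2 FPKM there were 61, from 2 to 5 there were 37, from 5 to 10 there were 16, from 10 to 50 there were 11, and 3 stood at 50 or more. Just above the level of 1 FPKM stood Gm12319 (1.005), Gm49668 (1.01), Dleu2 (1.02) and 1700096K18Rik (1.02), and just under it Gm15889 (0.985), Gm20703 (0.975), Gm36738 (0.974) and Gm48275 (0.969). The mean was at least 1 FPKM in both genotypes for 103 genes, in WT alone for 19 and in PRDX1 Cys52Ser alone for 6. FPKM also ran lower in PRDX1 Cys52Ser over all genes tested on that scale (median difference -0.24 in log2(FPKM + 0.5)). The same split was not taken over all genes, so these counts do not set lincRNAs apart. In GENCODE M21 (GRCm38), 104 of the 128 were typed as lincRNA, 19 as processed transcript and 4 as protein-coding (Erdr1, Gm47283, Gm21860 and Gm10134), and 1 was not found (Gm50475). The longest transcript had a median of 1255 bases, from 269 in Mir142hg to 20771 in Neat1, with a median of 2 exons, and 30 genes had 1 exon in it. Names were mostly placeholders: 69 began with Gm and 30 ended with Rik.

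Several facts of annotation limit what a value stands for. Another gene lay on the same strand within or across 32 of the lincRNAs and on the opposite strand for 31. A transcript at least 95% identical over at least 30% of the length was found elsewhere for 17. The sources do not state whether strand entered the counting, which leaves values at overlapping and near-identical genes uncertain.

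The most abundant was AW112010, an RNA known from interferon-stimulated and inflammatory immune cells (GRCm38 chr19:11047612-11055808, minus strand). It stood at 112, 75.9 and 142 FPKM in WT replicates 1, 2 and 3 and at 127, 90.2 and 98.6 FPKM in PRDX1 Cys52Ser replicates 1, 2 and 3. The genotypes overlapped, with a log2 fold change of 0.27 (PRDX1 Cys52Ser over WT here and below; 95% confidence interval -0.39 to 0.93, edgeR adjusted p = 0.631), and of -0.07 with library totals alone.

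Gm10076 came next by mean level (74.9 FPKM), and its libraries were far apart. Its values were 14.8, 48.9 and 180 FPKM in WT and 72.3, 95.5 and 37.6 FPKM in PRDX1 Cys52Ser, so that both the lowest and the highest library were WT. Its single exon is 99.5% identical over 99.7% of its length to Rpl41, the gene of a small ribosomal protein, so reads of the 2 genes may have been split between them. Rpl41 itself was at 299 ± 22.6 and 269 ± 20.3 TMM-scaled CPM (SD, n = 3 each). CPM here is a count relative to a library size adjusted by the TMM method.

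BC024386 followed, at 48.7, 35.3 and 61.6 FPKM in WT and 61.6, 52.4 and 53.6 FPKM in PRDX1 Cys52Ser, which overlapped. Erdr1, annotated at the end of chromosome X, ranged from 17.3 to 54.2 FPKM in WT and from 10.6 to 24.9 FPKM in PRDX1 Cys52Ser. It is 100% identical over 99.6% of its length to Gm47283, another gene in the set, so neither level can be read alone. Gm42047 was at 11.2, 19.4 and 25 FPKM in WT and 15.8, 29.3 and 25.8 FPKM in PRDX1 Cys52Ser, again with overlap. Part of its transcript (64.3% of its length) is 98.4% identical to Gm48362.

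The remaining top genes kept closer to their group. 9130016M20Rik, a gene of 1 exon, was at 20.1, 20.4 and 26.5 FPKM in WT and at 27.6, 26.8 and 27.7 FPKM in PRDX1 Cys52Ser. 2900097C17Rik, the mouse Norad, an abundant RNA that binds PUMILIO proteins, was at 24.9, 25.4 and 20.9 FPKM in WT and 15.5, 16.0 and 14.4 FPKM in PRDX1 Cys52Ser. For neither gene did the groups overlap on the TMM-scaled CPM scale, yet neither passed the test (log2 fold change 0.63, adjusted p = 0.0874, and -0.29, adjusted p = 0.14). Part of the 2900097C17Rik transcript (51.6% of its length) is 99.2% identical to Gm7292, another gene in the set. Reads of 2900097C17Rik and Gm7292 may have been split between them.

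**Figure D1:**
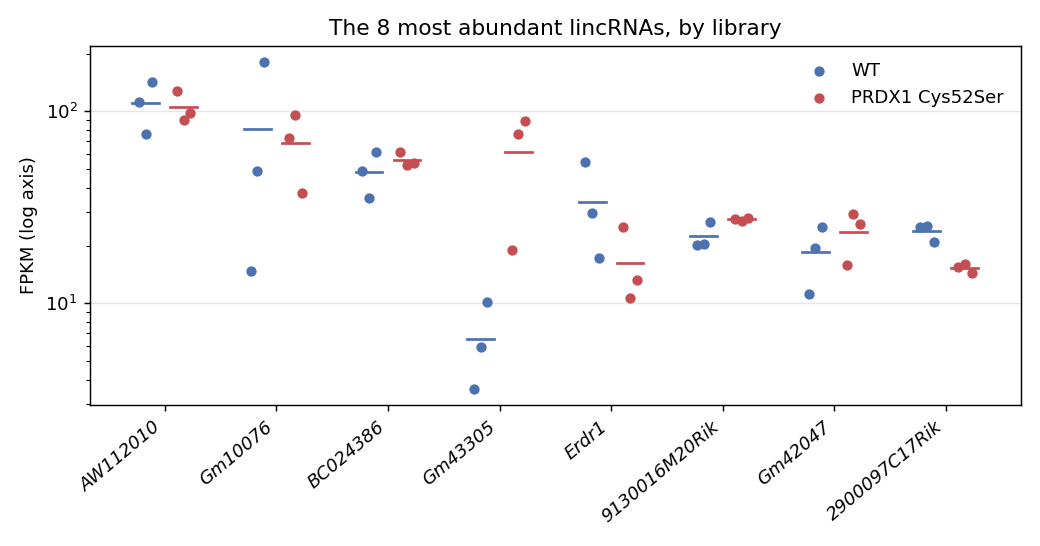
FPKM on a log axis for the 8 lincRNAs with the highest mean, 1 point per library and a bar at the mean of 3 mice, with WT in blue and PRDX1 Cys52Ser in red. AW112010 is highest on average, Gm10076 runs from 14.8 to 180 within WT, and Gm43305 runs from 3.59 to 10.2 in WT and from 18.9 to 89.0 in PRDX1 Cys52Ser.

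The genotypes overlapped in the whole lincRNA output of a library. The summed level of the 128 genes was 735, 650 and 971 FPKM in WT and 736, 726 and 685 FPKM in PRDX1 Cys52Ser (785 ± 166 and 716 ± 26.8, SD, n = 3 each). WT replicate 3 alone stood above the other libraries. As a share of all FPKM the set took 0.173% to 0.254% in WT and 0.174% to 0.188% in PRDX1 Cys52Ser. AW112010, the most abundant by mean, took 13.9 ± 1.92% of the summed level in WT and 14.7 ± 2.43% in PRDX1 Cys52Ser (SD, n = 3 each), again with overlap.

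WT replicate 3 had the highest level of 42 of the 128 genes and the lowest of 4, while WT replicate 1 had the lowest of 34 and PRDX1 Cys52Ser replicate 2 the lowest of 30 on the TMM-scaled CPM scale. The coefficient of variation between mice had a median of 26.7% in WT and 19% in PRDX1 Cys52Ser, and it was over 100% in 3 genes in WT (Gm10076, Gm32468 and E130102H24Rik, the last chosen after its values were seen).

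Library totals were 53318196 to 73900923 deposited counts. Albumin took 3.6% to 5.55% of counts in WT and 8.08% to 8.49% in PRDX1 Cys52Ser, and TMM factors were 1.05 to 1.21 and 0.814 to 0.963. Cell type markers also moved with genotype: hepatocyte markers summed to 57416 to 91404 CPM in WT and 132338 to 164217 CPM in PRDX1 Cys52Ser (3 of 15 higher), stellate cell and myofibroblast markers to 1663 to 2832 and 1011 to 1259 CPM (6 of 13 lower), and cholangiocyte markers to 627 to 1322 and 146 to 440 CPM (2 of 9 lower). Of 15 macrophage markers 2 were higher and 4 lower (1874 to 2852 and 1399 to 1460 CPM), of 10 endothelial markers 3 were higher (461 to 514 and 542 to 650 CPM), and of 11 lymphocyte markers 1 was lower (98.6 to 103 and 70.5 to 93.3 CPM). Every hepatocyte marker was present, as the liver label requires, no marker of any list was at 0, and the part of these shifts in the lincRNA results was not tested. In bulk tissue, fewer cells of a type and less RNA per cell cannot be told apart. Prdx1 was at 920 ± 57.2 and 780 ± 105 CPM (SD, n = 3 each; adjusted p = 0.421), and a change of 1 residue cannot be seen in gene counts.

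Between genotypes, 4 of the 128 lincRNAs fell and 1 rose in PRDX1 Cys52Ser (edgeR quasi-likelihood test, Benjamini-Hochberg adjusted p under 0.05 over 18648 genes). That is a share of 3.91%, against 4.98% of all genes tested (2.52% higher and 2.46% lower), so the set was not called more often than the table as a whole. All 128 passed the filter on low counts. Genes that reached a mean of 1 FPKM through 1 genotype alone were bound to differ that way in mean FPKM, and Gm29650 is 1 of them. Among the 103 genes at 1 FPKM or more in both genotypes, 3 fell and 1 rose (3.88%). The split was 2 higher and 4 lower with RLE or upper quartile scaling, 3 higher and 14 lower with library totals alone, and 7 higher and 11 lower in DESeq2. The median log2 fold change was -0.07, against -0.0032 for all genes, with 59 values above 0 and 69 below. On the TMM-scaled CPM scale the groups did not overlap for 13 genes that were higher and 18 that were lower in PRDX1 Cys52Ser of the 128, where 14.4% and 15.2% of all genes tested did the same.

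Under the other settings of edgeR and DESeq2 that kept all libraries, the share of the 128 that passed was near or under that of all genes, except with no filter, and in limma on FPKM it was above it. It was 6 of 128 with RLE factors (5.17% of all genes) and with upper quartile factors (5.54%), 5 with no filter on low counts (3.24%), and 6 of 119 with a filter on mean CPM (8.06%). With library totals alone 17 passed (16.2% of all genes), and with DESeq2 18 of 126, or 14.3% (15.3%). In limma on log2(FPKM + pseudocount), 29 of 128, or 22.7%, passed with a pseudocount of 0.5 (15.2%) and of 0.1 (15.7%), 27 with one of 1 (14.5%), 12 with no filter (4.42%), and 9 after rescaling FPKM by TMM (3.66%). Without WT replicates 1, 2 or 3, 3, 1 and 6 passed (2.15%, 0.295% and 4.06% of all genes), and without PRDX1 Cys52Ser replicates 1, 2 or 3, 0, 2 and 0 passed (0.161%, 2.6% and 0.145%). The edgeR counts of 0 stood beside 25 and 20 lincRNAs at an unadjusted p under 0.05.

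**Figure D2:**
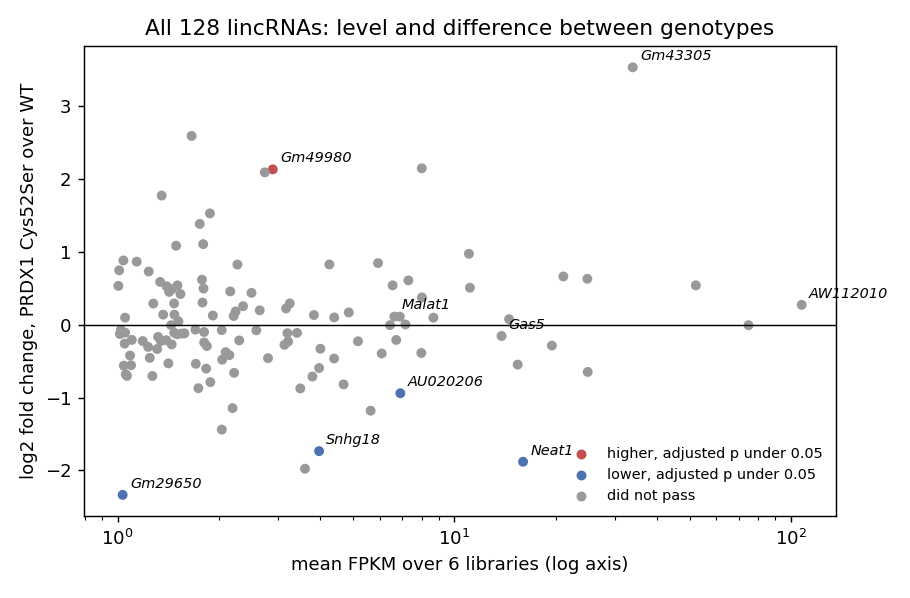
Mean FPKM over 6 libraries (log axis) against the log2 fold change for all 128 lincRNAs, with genes that passed the test in red (higher) and blue (lower). The 5 coloured genes lie between 1.03 and 16.0 FPKM, and the most abundant gene, AW112010, lies at 0.27.

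Neat1 fell in PRDX1 Cys52Ser. It stood at 602, 320 and 733 TMM-scaled CPM in WT replicates 1, 2 and 3 and at 188, 142 and 119 in PRDX1 Cys52Ser replicates 1, 2 and 3. Every PRDX1 Cys52Ser library lay under every WT library, and WT replicate 2 was the nearest of the WT libraries. The log2 fold change was -1.88 (SE 0.327, adjusted p = 0.0312), and the level went from 26.4 ± 9.40 to 5.67 ± 1.41 FPKM (SD, n = 3 each). Neat1 (chr19:5824708-5845478, minus strand) is annotated with 4 transcripts, and the longest has 1 exon. The libraries were selected on poly(A) tails, and gene-level values do not tell the transcripts apart. How fully such libraries captured Neat1 and Malat1 RNA was not tested. Of the fits with 1 library left out, the call was lost without WT replicate 1 (adjusted p = 0.0804), WT replicate 3 (0.0537) or PRDX1 Cys52Ser replicates 1, 2 or 3 (0.0838, 0.0666 and 0.115), and over all alternatives the adjusted p ran from 9.69e-10 to 0.115 with the same direction.

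Malat1 and Frmd8 beside Neat1, and its listed protein partners, did not pass the test. Malat1, which lies beside it on the same strand, was at 58.5, 43.1 and 48.5 CPM in WT and 62.4, 49.5 and 50.4 CPM in PRDX1 Cys52Ser, with overlapping groups. Its log2 fold change was 0.11 (95% confidence interval -0.24 to 0.46, adjusted p = 0.721), and this sign turned to below 0 with library totals alone and on the FPKM scale. For Frmd8, the protein-coding gene 4224 bp away, the value was -0.15 (adjusted p = 0.584). Of 11 paraspeckle proteins and Neat1 partners, 0 passed the test with edgeR (0 at an unadjusted p under 0.05 too), where 4.98% of all genes passed, and their median log2 fold change was -0.031.

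Snhg18 fell 3.33-fold. This host of the snoRNA Snord123 (chr15:32240565-32244662, minus strand), whose promoter is printed above, stood at 12.1, 7.96 and 8.37 CPM in WT and 2.72, 2.93 and 2.89 CPM in PRDX1 Cys52Ser. The PRDX1 Cys52Ser libraries were close to each other and far under every WT library. The log2 fold change was -1.74 (SE 0.219, adjusted p = 0.0169). Sema5a, the gene of a guidance protein, starts 148 bp away on the opposite strand. It was at 12.5, 5.90 and 5.74 CPM in WT and 1.62, 10.2 and 2.03 CPM in PRDX1 Cys52Ser. Its groups overlapped through PRDX1 Cys52Ser replicate 2 (log2 fold change -0.80, adjusted p = 0.599). The Snhg18 call was lost without WT replicate 2 (adjusted p = 0.0541), PRDX1 Cys52Ser replicate 1 (0.0689) or PRDX1 Cys52Ser replicate 3 (0.0717), with adjusted p from 3.59e-09 to 0.0717 over all alternatives.

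AU020206, a lincRNA of unassigned role (chr7:75769038-75782099, minus strand), fell 1.92-fold. It was at 38.9, 24.6 and 29.9 CPM in WT and 15.6, 17.3 and 15.8 CPM in PRDX1 Cys52Ser, with a gap between the groups. The log2 fold change was -0.94 (SE 0.173, adjusted p = 0.0337). Akap13, its nearest protein-coding gene, was at 0.06 on the log2 scale (adjusted p = 0.831). Of the fits with 1 library left out, the call was lost without WT replicates 2 or 3 (adjusted p = 0.0561 for both) or PRDX1 Cys52Ser replicates 1, 2 or 3 (0.114, 0.06 and 0.12), with adjusted p from 1.25e-04 to 0.12 over all alternatives.

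Gm29650 lies on chromosome Y (chrY:1048393-1049134, plus strand) and had few counts, 79, 107 and 74 in WT and 19, 19 and 8 in PRDX1 Cys52Ser. At 0.999, 1.76 and 1.28 CPM against 0.291, 0.350 and 0.153 CPM the groups stood apart. Its mean was 1.80 FPKM in WT and 0.272 FPKM in PRDX1 Cys52Ser, so it entered the set through WT alone, and its difference was not independent of that choice. The log2 fold change was -2.34 (SE 0.501, adjusted p = 0.0466). Other genes of the Y chromosome had smaller values and none passed: Eif2s3y had a log2 fold change of -0.04, Ddx3y of 0.06, Kdm5d of -0.05 and Uty of -0.14. The call was lost when any of the 6 libraries was left out, with adjusted p from 0.0662 to 0.144, and over all alternatives it ran from 1.40e-03 to 0.144.

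Gm49980 was the gene that rose. It lies on chromosome 18 and ends 614 bp before the start of Pik3c3, the gene of a lipid kinase of autophagy, on the same strand. It stood at 1.10, 1.86 and 1.65 CPM in WT and 7.62, 7.55 and 5.03 CPM in PRDX1 Cys52Ser, with every PRDX1 Cys52Ser library above every WT library. The log2 fold change was 2.13 (SE 0.300, adjusted p = 0.0203), while Pik3c3 had one of -0.01 (adjusted p = 0.98). Part of the transcript (59.7% of its length) is 95% identical to Gm42427, so reads of the 2 genes may have been split between them. The call was lost without WT replicate 2 (adjusted p = 0.0627) or PRDX1 Cys52Ser replicates 1 or 3 (0.0785 and 0.0542), with adjusted p from 6.03e-09 to 0.0785 over all alternatives.

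Larger differences than these stood in genes that did not pass. Gm43305 (chr14:54292443-54297456, minus strand) had the largest log2 fold change of the set, 3.54 (SE 0.727, 95% confidence interval 1.78 to 5.30, adjusted p = 0.0502). Its values were 16.7, 29.4 and 55.8 CPM in WT and 122, 448 and 610 CPM in PRDX1 Cys52Ser, so that the groups stood apart but each spread widely. It passed the test in 9 of 18 alternatives, among them RLE scaling (adjusted p = 0.0478) and DESeq2 (2.48e-05), and the adjusted p over all of them ran from 2.48e-05 to 0.154. Abhd4, its nearest protein-coding gene, was at -0.29 on the log2 scale (adjusted p = 0.201).

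Gm32468 differed by 2.59 on the log2 scale (adjusted p = 0.291), with 0 counts in WT replicate 2 and 428 in PRDX1 Cys52Ser replicate 1. Its mean was 0.556 FPKM in WT and 2.76 FPKM in PRDX1 Cys52Ser, so its direction was not independent of the membership rule. C730036E19Rik was at 4.25, 1.35 and 6.34 CPM in WT and 22.3, 13.4 and 17.2 CPM in PRDX1 Cys52Ser (adjusted p = 0.0713). Gm27252, which lies over Klf13 on the opposite strand, was at 0.797, 0.345 and 1.59 CPM in WT and 3.63, 4.07 and 3.98 CPM in PRDX1 Cys52Ser (adjusted p = 0.0686). In both of these the groups did not overlap. Klf13 itself was at 0.67 on the log2 scale (adjusted p = 0.0506).

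On the other side, Gm15611 was at 2.28, 3.32 and 1.72 CPM in WT and 0.949, 0.497 and 0.402 CPM in PRDX1 Cys52Ser (log2 fold change -1.98, adjusted p = 0.0604). Gm31522 was at 2.34, 1.81 and 3.17 CPM in WT and 1.02, 0.884 and 0.785 CPM in PRDX1 Cys52Ser (log2 fold change -1.44, adjusted p = 0.0652). The groups stood apart for both genes. Gm31522 reached a mean of 1 FPKM in WT alone (3.16 in WT and 0.917 in PRDX1 Cys52Ser), so its direction was not independent of the membership rule.

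**Figure D3:**
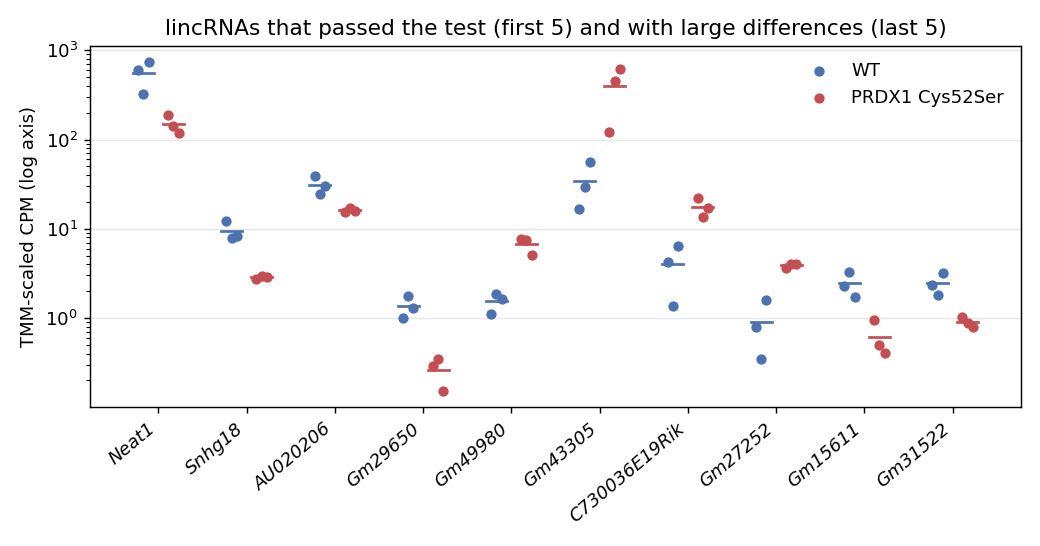
TMM-scaled CPM on a log axis for the 5 lincRNAs that passed the test (Neat1, Snhg18, AU020206, Gm29650 and Gm49980) and for 5 with large log2 fold changes that did not, 1 point per library and a bar at the mean of 3 mice. Within each gene no WT point overlaps a PRDX1 Cys52Ser point, and on this axis Gm43305 has the widest gap between the means (33.9 and 393 CPM).

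Of 21 genes in a list of snoRNA hosts 19 were tested, and 1, Snhg18, fell and 0 rose (11 of the 21 are in the set). That is 5.26% of those tested, near the 4.98% of all genes. By annotation, 12 of the 128 lincRNAs had a snoRNA inside on the same strand. One of them, AI506816, counts through an entry named Mir3096. Their median log2 fold change was -0.24, with 3 values above 0 and 9 below, and the median ran from -0.59 with library totals alone to -0.11 without WT replicate 2.

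Gas5, which holds the most snoRNAs in the set, was at 52.9, 68.2 and 62.6 CPM in WT and 60.6, 55 and 49.4 CPM in PRDX1 Cys52Ser, with overlap (log2 fold change -0.15, 95% confidence interval -0.46 to 0.15, adjusted p = 0.551). Snhg1 was at 12.5, 19.5 and 18.5 CPM in WT and 12.6, 13.9 and 10.1 CPM in PRDX1 Cys52Ser (log2 fold change -0.46, adjusted p = 0.24), and its neighbour Slc3a2, which starts 106 bp away on the opposite strand, had -0.50 (adjusted p = 0.12; chosen after its value was seen). Snhg8 was at 5.06, 7.74 and 7.68 CPM in WT and 9.67, 8.45 and 8.44 CPM in PRDX1 Cys52Ser (log2 fold change 0.38, adjusted p = 0.337), without overlap but with a gap smaller than the spread in WT. The other listed hosts in the set, Snhg5, Snhg6, Snhg12, Snhg15, Snhg17, Snhg20 and Epb41l4aos, had log2 fold changes from -0.38 in Snhg15 to 0.13 in Snhg5.

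The nuclear and chromatin list held 28 genes, of which 19 were tested and Neat1 alone passed (5.26%, near the 4.98% of all genes). In the set were also Malat1, Norad (2900097C17Rik), Oip5os1, 1810026B05Rik and Fendrr. Oip5os1, known as cyrano, was the most even, at 58.8, 57.9 and 63.8 CPM in WT and 63.0, 58.8 and 58.0 CPM in PRDX1 Cys52Ser (log2 fold change -0.01, 95% confidence interval -0.22 to 0.21, adjusted p = 0.984). For 1810026B05Rik, which lies across Chd2, the value was -0.12 (adjusted p = 0.656). Fendrr, which lies beside the Foxf1 gene of a mesenchymal transcription factor, was at 5.59, 3.19 and 5.41 CPM in WT and 1.91, 4.05 and 2.89 CPM in PRDX1 Cys52Ser, with overlap (log2 fold change -0.68, adjusted p = 0.314). Its mean was 1.41 FPKM in WT and 0.70 FPKM in PRDX1 Cys52Ser, so its direction was not independent of the membership rule. Summed CPM of the list was 727 to 1154 in WT and 475 to 627 in PRDX1 Cys52Ser, Neat1 included.

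Among microRNA hosts none passed the test with edgeR: 11 of 13 listed genes were tested and 0 rose or fell (1 at an unadjusted p under 0.05), where 4.98% of all genes passed, so this count says little about a list of this size. In the set, 6 genes had a microRNA inside, and all 6 had log2 fold changes below 0 in the main test and with the RLE, upper quartile, library total and DESeq2 scalings. This turned to 5 of 6 without WT replicate 3 or PRDX1 Cys52Ser replicates 2 or 3. Mir17hg, Mir142hg, Dleu2 and E130102H24Rik reached a mean of 1 FPKM in WT alone, so their signs were not independent of the membership rule. Of the 19 lincRNAs at that level in WT alone, 18 had log2 fold changes below 0. Mir17hg was at 3.16, 5.74 and 5.74 CPM in WT and 3.04, 2.91 and 3.96 CPM in PRDX1 Cys52Ser, with overlap through WT replicate 1 (log2 fold change -0.56, adjusted p = 0.324). For Dleu2 the value was -0.13 (adjusted p = 0.754), and for Mir142hg -0.33 (adjusted p = 0.8). E130102H24Rik was uneven and at 0 in 2 libraries, with 0, 0.181 and 3.54 CPM in WT and 2.85, 0 and 0.230 CPM in PRDX1 Cys52Ser (adjusted p = 0.963).

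These libraries were selected on poly(A) tails and do not measure mature microRNAs. The products are shown, with the seed (bases 2 to 8) in capitals, because 3 pairs among them share 1: miR-17-5p and miR-20a-5p, and miR-19a-3p and miR-19b-3p from Mir17hg, and miR-15a-5p and miR-16-5p from Dleu2 (RefSeq, GRCm38.p6).
mmu-miR-17-5p: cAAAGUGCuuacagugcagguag
mmu-miR-20a-5p: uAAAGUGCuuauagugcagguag
mmu-miR-19a-3p: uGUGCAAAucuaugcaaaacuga
mmu-miR-19b-3p: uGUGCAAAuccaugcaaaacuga
mmu-miR-15a-5p: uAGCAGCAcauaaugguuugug
mmu-miR-16-5p: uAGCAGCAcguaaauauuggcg

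**Figure D4:**
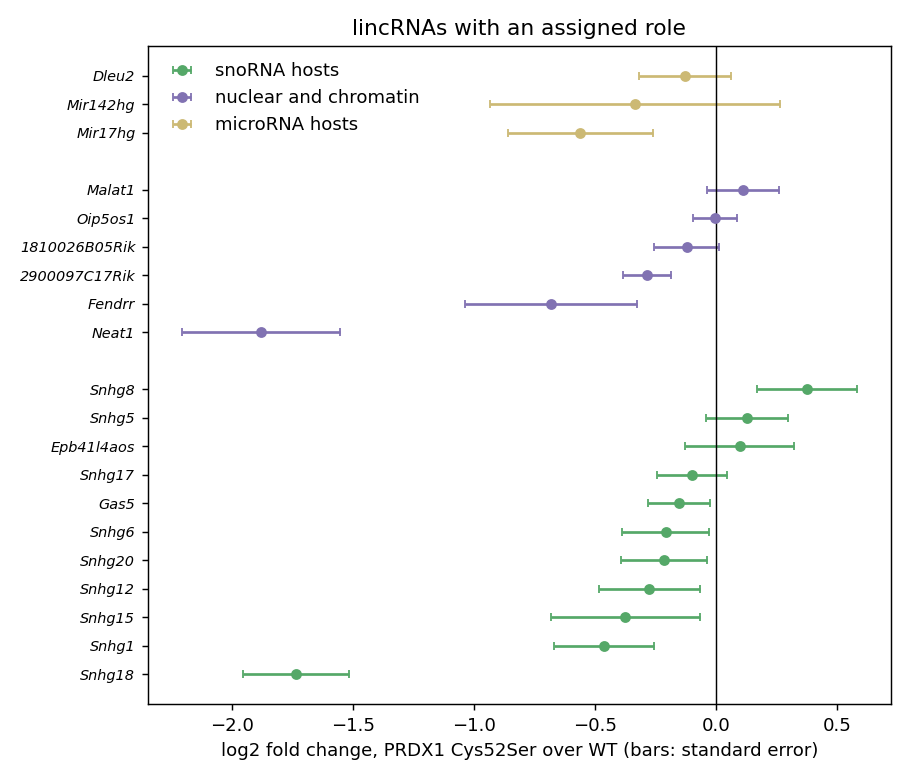
Log2 fold change (PRDX1 Cys52Ser over WT) of the lincRNAs in the set that belong to the snoRNA host, nuclear and chromatin, and microRNA host lists, with bars of 1 standard error. Snhg18 (-1.74) and Neat1 (-1.88) lie far to the left, and the other genes lie between -0.68 and 0.38.

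Many lincRNAs lie near a protein-coding gene, so the nearest one was set beside each. Of the 128 pairs, 122 had a neighbour that was tested, at a median distance over all 128 of 11399 bp. Across the 122 pairs the log2 fold changes had a Pearson r of 0.21 (Spearman rho 0.30), and 76 pairs (62.3%) had the same sign. Within 10 kb, r was 0.41 over 59 pairs and 64.4% had the same sign, and over 10 kb r was 0.07 over 63 pairs. Protein-coding genes and their own nearest protein-coding gene within 10 kb had an r of 0.13 over 5890 pairs, with 53.2% of the same sign. For the 10 pairs on opposite strands whose neighbour lay before the lincRNA's 5′ end within 1 kb, r was 0.86, and 0.72 without Snhg18, while 6 of the 10 (60.0%) had the same sign, and 5 of 9 (55.6%) without Snhg18. All values of a pair come from the same 6 libraries, so these are descriptions across genes, which are not independent replicates.

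Of 117 distinct neighbours that were tested, 9 rose and 3 fell (10.3%), beside 4.98% of all genes and 5.76% of protein-coding genes tested. The difference between these shares was not tested. A neighbour that passed stood in 13 pairs, and the lincRNA had the same sign in 11 of them. These pairs count Bicc1 more than once, through overlapping lincRNAs that share the name C730027H18Rik. They also reach far, up to 234937 bp for Gm8883 and Fn1. A1cf, a cofactor of apolipoprotein B mRNA editing, rose from 29.5 ± 2.45 to 66.0 ± 9.59 CPM (SD, n = 3 each; log2 fold change 1.16, adjusted p = 0.0165) and lies 1511 bp before 9130016M20Rik on the same strand, whose log2 fold change was 0.63. Crot, a peroxisomal carnitine acyltransferase, fell from 656 ± 41.9 to 338 ± 48.9 CPM (log2 fold change -0.96, adjusted p = 0.0245). It starts 1078 bp beyond the end of Gm15611 on the same strand, whose log2 fold change was -1.98. In neither pair did the lincRNA pass the test. Ms4a8a, near AW112010 (11663 bp), rose from 1.04 ± 0.159 to 3.84 ± 0.213 CPM (adjusted p = 0.0209), while AW112010 had a log2 fold change of 0.27. The signs were opposite in 2 pairs: Slc16a10, the gene of an amino acid transporter, had a log2 fold change of 0.78 beside -0.22 in Gm31992, and Ak4, the gene of a mitochondrial adenylate kinase, had 1.47 beside -0.26 in E130102H24Rik. The 5 lincRNAs that passed had nearest protein-coding genes (Frmd8, Sema5a, Akap13, Eif2s3y and Pik3c3) with log2 fold changes from -0.80 to 0.06, none of which passed.

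**Figure D5:**
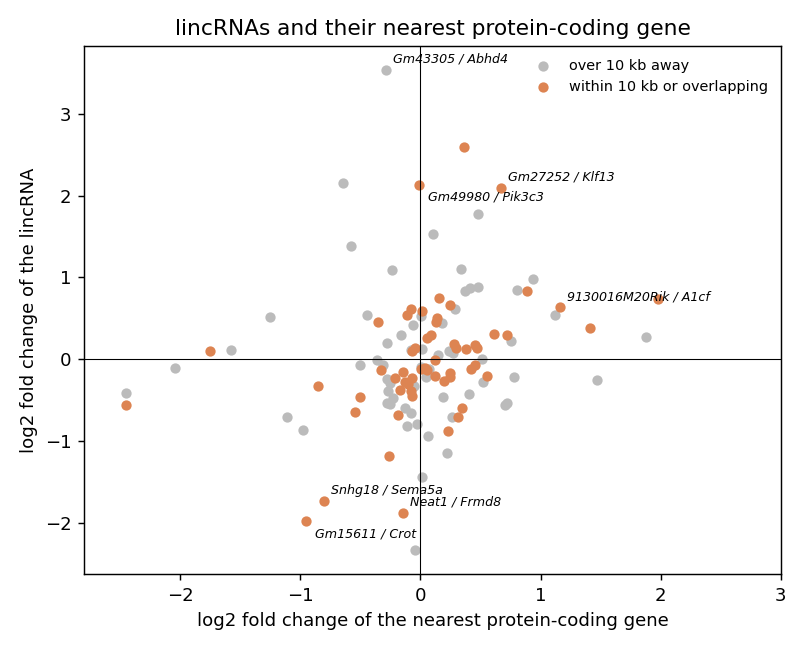
Log2 fold change of each lincRNA (vertical) against that of its nearest protein-coding gene (horizontal) for the 122 pairs with a tested neighbour, with pairs within 10 kb or overlapping in orange and the others in grey. The orange points follow the diagonal loosely (r 0.41 over 59 pairs) and the grey points do not (r 0.07 over 63 pairs).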

How the data were processed

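Liver RNA of 6 male mice was selected on poly(A) tails and made into strand-marked paired-end libraries with unique molecular identifiers, per the labels' protocols. Tools listed with no role in the submitters' processing notes are edgeR, DESeq2, StringTie 1.3.4d, HISAT2 2.0.4, UMI-tools and cutadapt 1.9, and mm9 is the build listed. Positions here are GRCm38, since 28524 of 28601 gene identifiers are in GENCODE M21 and 25674 have the same coordinates in it. Per the file headers, the authors deposited for each gene both FPKM and an estimated count (whole numbers) in every library. For genes with 1 transcript and at least 1000 counts, the product of FPKM, transcript length and a library constant matched the count to within 1% in 89.9% to 92.4% of cases, so these expected counts follow coverage.

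Genotypes were read from the titles. The lincRNAs and gene lists were chosen with earlier results of these data known. Counts were tested with edgeR 4.0.16 in R 4.3.3 (TMM factors, filterByExpr at a minimum count of 10, robust quasi-likelihood fit, genotype only), with Benjamini-Hochberg adjustment over 18648 genes at 0.05. Standard errors are the fold change on the log2 scale over the square root of F. Copies were searched with blastn 2.17.0. Named genes are the 8 highest by mean FPKM, all that passed, members of the fixed lists, the 5 largest log2 fold changes each way, the 4 genes on each side of 1 FPKM and the nearest protein-coding genes of the first 2 kinds. Others are named as context: the markers' lists, genes of chromosome Y, neighbours and overlapping genes, chosen after values were seen. On counts simulated from these means (18648 genes), the edgeR test recovered 19 of 41 genes lowered and 29 of 55 raised by 2 on the log2 scale, 15 of 52 lowered and 10 of 52 raised by 1, and called 14 of 18448 unchanged genes. No 2 libraries agreed within sampling noise (chi-square per degree of freedom 86.9 or more). Alternatives were other scalings and filters, DESeq2 1.42.0, limma 3.58.1 on log2(FPKM + 0.5), a replicate block, leaving out each library and other membership levels.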

Additional observations from a re-analysis of the deposited data

How the results depend on the processing

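The counts of lincRNAs that passed moved with the method, from 1 higher and 4 lower in the main test. RLE and upper quartile scaling and the filter on mean CPM gave 2 higher and 4 lower. Library totals alone gave 3 and 14 (14.6% of all genes were lower), with a median log2 fold change of -0.43, where the median of all genes also moved to -0.35. DESeq2 gave 7 and 11. Limma on log2(FPKM + 0.5) and log2(FPKM + 0.1) gave 5 and 24 (medians -0.31 and -0.37), on log2(FPKM + 1) 5 and 22 (median -0.25), and without a filter 2 and 10 (median -0.31). In limma with a pseudocount of 0.5 the median of all genes was -0.24 and 13.4% of them were lower, and the cause of the differences between methods was not tested. TMM-rescaled FPKM, an alternative chosen after seeing the data, gave 3 and 6. Leaving out 1 library at a time gave 0 to 5 higher and 0 to 2 lower, with medians from -0.12 to 0.091, in designs with fewer samples; without WT replicate 3 it was 5 and 1. A membership level of 0.5 FPKM gave 3 and 6, and genes with no same-strand overlap gave 1 and 2 (median 0.11).

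The titles do not say that replicate numbers pair the mice. Correlations of deviations between same-numbered libraries were 0.01, 0.17 and 0.06, and not every library correlated best with its own number. With 3 mice per group, these deviations from a group mean are tied to each other and cannot settle whether mice were paired. With a replicate block, 2 lincRNAs were higher and 1 lower (3.91% of all genes were called). Snhg18 (adjusted p = 0.0337) and Gm49980 (0.0386) passed in it and Gm43305 (0.0236) was added, while Neat1 (0.0516), AU020206 (0.0604) and Gm29650 (0.0783) did not pass.

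The log2 ratio of summed FPKM, -0.13, became 0.022 with TMM-scaled CPM and 0.047 without WT replicate 3, within a range of -0.25 to 0.047 when 1 library was left out. For the share of AW112010 the ratio was 0.08, and -0.028 without WT replicate 2 and -0.0498 without PRDX1 Cys52Ser replicate 1 (range -0.0498 to 0.19). The neighbour correlation, 0.21, was 0.41 within 10 kb. Depth limits the low genes most: Gm29650 had 8 counts in its lowest library.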
